A study of Homo sapiens with 9 samples.

Results

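The S100 genes examined here are 10 members of a family of small calcium-binding proteins: S100A8, S100A9, S100A12, S100A4, S100A6, S100A10, S100A11, S100A13, S100A16 and S100P. They were found by symbol in the table of expression values, where 10 of 57338 genes carried these names. The members were chosen from measured values of these same 9 libraries, so their levels and their differences between groups are given as a description. The limma calls listed for them are part of that description and no test. The labels give HEK293T, an immortal line derived from human embryonic kidney, as the source of all RNA. One plasmid carried EGFP alone (empty vector), another hPRM1 joined to EGFP and the last hPRM2 joined to EGFP, and live transfected cells with a high EGFP signal were sorted after 3 days. By this description all 3 groups share transfection, the EGFP reporter and the sort. The levels of the protamine genes and of cell type markers in each group are given below. Protamines are the small basic proteins that replace most histones in the sperm nucleus, and the study asked what their expression does to a somatic cell. Each group had 3 libraries, which enrich the 3′ ends of polyadenylated transcripts. Nothing in the labels says whether the 3 came from separate cultures, so the errors given here may be technical.

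Expression is given as RPKM, the reads of a gene scaled by its length in kilobases and by the library total. An estimate from the spacing of low values put the reads on genes at 7930000 to 10790000 per empty vector library, 4210000 to 5860000 per library labelled hPRM1 and 1270000 to 2650000 per hPRM2 library, so the hPRM2 values carry the largest counting error. PRM2 was at 36130 to 71224 RPKM in the hPRM2 libraries and at 0 in the other 6. PRM1, the targeted gene of the other protamine group, was at 0 in all 9 libraries, and the group is therefore called the libraries labelled hPRM1 throughout. In these libraries 9 of the 9 tested HEK293T marker genes were below their empty vector levels, with a summed level of 0.0820 to 0.556 RPKM against 204 to 293 RPKM. Each of 16 neutrophil and monocyte markers was higher, with a sum of 4734 to 6098 RPKM against 38.9 to 41.7 RPKM, and 10 of the 16 were at 0 in the empty vector. Of all genes tested, limma called 12.9% higher. VCAN, at 38.0 to 40.7 RPKM, made up most of the empty vector sum. The other markers passed the filter through the libraries labelled hPRM1 alone, so they had to differ. Erythroid markers summed to at least 2060240 RPKM there and to at most 18.2 RPKM in the empty vector. Platelet markers summed to 319 to 560 RPKM against 3.85 to 13.5 RPKM, and lymphocyte markers to 433 to 494 RPKM against 0. These values move together with every difference of the libraries labelled hPRM1 described here, and their part in those differences was not tested. The library names of this group also belong to another number series than the other 6, so the condition and a batch of libraries cannot be told apart. In bulk RNA, fewer cells of a type and less RNA per cell cannot be told apart either.

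S100 proteins are small and mostly form dimers. Each chain carries a pair of calcium-binding EF-hand motifs, and binding of calcium opens a surface that grips target proteins. Some act inside the cell on the cytoskeleton, on annexins at membranes and on the cell cycle machinery. Others are released and act on receptors of the innate immune system. S100A8 and S100A9 together form calprotectin, the most abundant protein complex of the neutrophil cytoplasm, and S100A12 is a related granulocyte protein. Most human S100 genes lie side by side on the long arm of chromosome 1.

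The promoters are shown first because several members with opposite patterns share one short element. RefSeq promoter sequence on GRCh38.p14 was matched for all 10 members, and the 250 bases before each listed start were searched on both strands (the middle one for genes with 3 listed starts and the upstream one for S100A16, which has 2). The letters TATAAA, the core of the TATA box, were found in 6 of the 10 windows, against 10.7% of 35116 promoter windows of the same length. The sequences of S100A9 at chr1:153357604-153357853 (plus strand) and S100A12 at chr1:153375622-153375871 (minus strand) are printed whole, since these neighbours were near or at 0 in the empty vector. They run 5′ to 3′ with TATAAA in capitals.
S100A9: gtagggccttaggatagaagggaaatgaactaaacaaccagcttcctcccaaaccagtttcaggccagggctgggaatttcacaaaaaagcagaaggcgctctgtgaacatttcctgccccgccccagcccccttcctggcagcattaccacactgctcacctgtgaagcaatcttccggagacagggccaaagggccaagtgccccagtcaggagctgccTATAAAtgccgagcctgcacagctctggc
S100A12: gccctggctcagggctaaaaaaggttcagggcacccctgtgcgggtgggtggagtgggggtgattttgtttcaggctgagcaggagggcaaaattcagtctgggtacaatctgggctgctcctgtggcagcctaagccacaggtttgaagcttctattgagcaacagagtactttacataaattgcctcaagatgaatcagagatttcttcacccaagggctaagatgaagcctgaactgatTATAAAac
For S100A8, S100A4, S100P, S100A13, S100A6 and S100A11 the 30 bases from 35 to 6 bases before the start are printed, the stretch where a TATA box usually lies. They lie for S100A8 at chr1:153391079-153391108 (minus strand), S100A4 at chr1:153545812-153545841 (minus strand), S100P at chr4:6693843-6693872 (plus strand), S100A13 at chr1:153627511-153627540 (minus strand), S100A6 at chr1:153535997-153536026 (minus strand) and S100A11 at chr1:152037010-152037039 (minus strand).
S100A8: aaccgcTATAAAaaggagctgcctctcagc
S100A4: ggggTATAAAtaggtcagacctctgggccg
S100P: gctgcctTATAAAgcaccaagaggctgcca
S100A13: gctgctTATAAAcctcagccctgaggctcc
S100A6: accgctataaggccagtcggactgcgacac
S100A11: gcttgggcaaggctgggccgggaagggcgt
The element TATAAA stood 28 to 31 bases before the start in S100A9, S100A8, S100A4, S100P and S100A13, and 8 bases before it in S100A12. S100A13, which was lower in the libraries labelled hPRM1 than in both other groups, carried the same letters as S100A8 and S100A9, which were higher there. S100A6, S100A10, S100A11 and S100A16 lacked them. The windows of the 10 members held between 1 and 24 CpGs, against a median of 11 over all promoters. The GC box GGGCGG was found in 4 of the 10 windows and in 42.6% of all. The C/EBP half-site pair TTGCNNAA was found in 2 of 10 (S100A12 and S100A11) and in 9.05% of all, the ETS core GAGGAA in 2 of 10 (S100A8 and S100A9) and in 23.6%, and the AP-1 letters TGANTCA in 1 of 10 (S100A12) and in 6.57%. A match of letters is a description of the sequence and no evidence of binding.

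The empty vector libraries expressed only some of the members. S100A10 came first at 406 ± 66.3 RPKM (SD, n = 3), followed by S100A13 at 123 ± 12.1 and S100A11 at 103 ± 21.3 RPKM, and the ranges of S100A13 and S100A11 overlapped. S100A4 stood at 10.2 ± 7.54 RPKM. S100A8, S100A9 and S100A16 had means under 1 RPKM, and S100A12 and S100A6 were at 0 in all 3 libraries. The hPRM2 libraries had the same leading members in the same order of means, with S100A10 at 320 ± 153, S100A13 at 175 ± 44.9 and S100A11 at 67.0 ± 13.2 RPKM. There S100A10 and S100A13 overlapped. In the libraries labelled hPRM1 the order was a different one. S100A9 led at 1703 ± 254 RPKM, above S100A4 at 1051 ± 188, S100A6 at 971 ± 137 and S100A8 at 903 ± 164 RPKM, of which each overlapped the next. S100A11 followed at 428 ± 53.9, S100P at 284 ± 73.5, S100A10 at 164 ± 14.5, S100A12 at 159 ± 30.4 and S100A13 at 1.72 ± 0.424 RPKM, and S100A10 and S100A12 overlapped. The 10 levels summed to 653 ± 103 RPKM with the empty vector, to 5664 ± 524 RPKM for the label hPRM1 and to 597 ± 183 RPKM for hPRM2. S100A10 made up 62.2% of the sum in the empty vector and 51.6% in hPRM2, but 2.89% in the libraries labelled hPRM1, where S100A9 alone made up 30.0%.

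**Figure D1:**
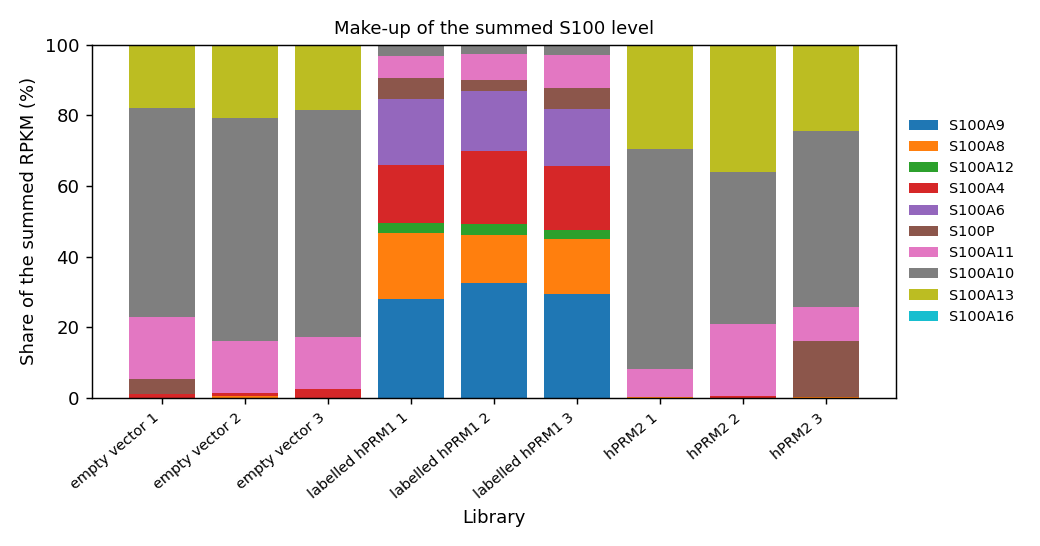
Share of each member in the summed RPKM of the 10 members, in percent, for each library. S100A10 holds 62.2% on average in the empty vector. In the libraries labelled hPRM1 it holds 2.89% and S100A9 30.0%.

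S100A9 (ENSG00000163220, chromosome 1, 153357854 to 153361027 on GRCh38, plus strand, GENCODE 29) encodes the larger subunit of calprotectin. Its level was 1617, 1989 and 1503 RPKM in replicates 1, 2 and 3 labelled hPRM1. It was 0.386, 0.358 and 0.284 RPKM in the empty vector and 0 in the 3 hPRM2 libraries. The gene has a single transcript of 577 bases, so the values could be turned into reads. They came to 3101, 2739 and 2568 reads in the libraries labelled hPRM1 and to exactly 1 read in each empty vector library. Over the groups, 8408 reads against 3 gave a ratio of 4994 in CPM, the reads of a gene scaled to the library total alone, with a 95% interval of 1708 to 24222 that covers counting error only. Since 3 reads in an hPRM2 library correspond to 3.46 to 7.21 RPKM, the empty vector level could not have been seen at the depth of the hPRM2 libraries.

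S100A8 (ENSG00000143546, chromosome 1, 153390032 to 153391188, minus strand) encodes the other calprotectin subunit. The libraries labelled hPRM1 held 1091, 831 and 786 RPKM. The empty vector held 0, 1.91 and 0 RPKM and hPRM2 held 1.54, 0 and 2.54 RPKM. With its shortest coding transcript these are 0, 4 and 0 reads in the empty vector and 1, 0 and 1 in hPRM2, so the groups with few reads cannot be told apart. Against the empty vector, the libraries labelled hPRM1 were 1528-fold higher in CPM (95% interval 596 to 5613, counting error only). S100A9 exceeded S100A8 in each of these 3 libraries, by a ratio of RPKM of 1.93 ± 0.456 (SD, n = 3, range 1.48 to 2.39).

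S100A12 (ENSG00000163221, chromosome 1, 153373706 to 153375649, minus strand), a granulocyte protein that binds the receptor AGER, lies between the calprotectin genes. It was at 152, 192 and 133 RPKM in the libraries labelled hPRM1, which is 239, 217 and 186 reads. The empty vector had no read, and hPRM2 had 1 read in replicate 1, or 1.41 RPKM, and 0 in the others. The libraries labelled hPRM1 were thus at least 381-fold higher than the empty vector, with 3 reads over the whole group as the floor. S100A8 stood 5.81 ± 1.43 times above S100A12 in RPKM in these libraries (SD, n = 3).

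S100A6 and S100A4 act mainly inside cells. S100A6, or calcyclin, binds the ubiquitin ligase adaptor CACYBP, and S100A4 binds non-muscle myosin. S100A6 (ENSG00000197956, chromosome 1, 153534599 to 153536244, minus strand) was at 1074, 1024 and 815 RPKM in the libraries labelled hPRM1 and at 0 in the other 6. This is at least 2022-fold above the empty vector when reads are taken from its shortest coding transcript. S100A4 (ENSG00000196154, chromosome 1, 153543613 to 153550136, minus strand) was at 962, 1266 and 923 RPKM there, at 7.47, 4.48 and 18.8 RPKM in the empty vector and at 0, 2.74 and 0 RPKM in hPRM2. It was therefore detected in all 3 empty vector libraries, and the groups did not overlap. The same held for 80.8% of all genes tested in the libraries labelled hPRM1 against the empty vector. The shares were 62.0% in the libraries labelled hPRM1 against hPRM2 and 35.9% in hPRM2 against the empty vector. The log2 fold change of S100A4 in the libraries labelled hPRM1 against the empty vector was 6.74 (SE 0.46). In hPRM2 against the empty vector it was -2.65 (SE 0.80), where 3 reads correspond to 4.02 to 8.38 RPKM. S100A4 overlaps S100A3 on the same strand and S100A6 overlaps a gene on the other strand, and the use of strand in counting is not given in the sources used here.

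S100P (ENSG00000163993, chromosome 4, 6693069 to 6697170, plus strand), the member outside chromosome 1, was scattered in the low groups. It was at 347, 203 and 301 RPKM in the libraries labelled hPRM1. In the empty vector, replicate 1 held 29.8 RPKM and replicates 2 and 3 held 0, and in hPRM2, replicate 3 held 98.1 RPKM and replicates 1 and 2 held 0. The libraries labelled hPRM1 lay above the other 6, while the empty vector and hPRM2 overlapped and a single library set the level of each. Its annotated transcripts are 313 and 1279 bases long, so that the empty vector value stands for 14.9 or 243 reads depending on the transcript. The log2 fold change of S100P against the empty vector was 6.47 (SE 1.32), the widest error among the members.

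S100A11, S100A10 and S100A13 were above 0 in all 9 libraries, S100A13 by only a few reads in those labelled hPRM1. S100A11 (ENSG00000163191, chromosome 1, 152032506 to 152047907, minus strand), a partner of ANXA1, was at 371, 437 and 478 RPKM in the libraries labelled hPRM1, at 122, 79.9 and 106 RPKM in the empty vector and at 59.2, 82.2 and 59.6 RPKM in hPRM2. Its log2 fold change against the empty vector was 2.06 (SE 0.21) in the libraries labelled hPRM1 and -0.60 (SE 0.34) in hPRM2, where the groups overlapped. The 8 S100A11 pseudogenes in the table were at 0 in all libraries, so no reads had been assigned to them.

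S100A10 (ENSG00000197747, chromosome 1, 151982915 to 151994390, minus strand) forms a complex with ANXA2 and differs from the rest of the family in that it no longer needs calcium. The empty vector libraries held 408, 339 and 471 RPKM, those labelled hPRM1 177, 166 and 148 RPKM and hPRM2 478, 173 and 309 RPKM. The libraries labelled hPRM1 lay below the empty vector without overlap, and 80.8% of all genes tested did not overlap either. The log2 fold change of S100A10 was -1.30 (SE 0.18), yet this direction turned to 0.88 after median-of-ratios rescaling and to 0.59 after quantile normalization. The median of all genes tested in this comparison was itself -1.72, and S100A10 thus lay above it. In hPRM2, the log2 fold change was -0.45 (SE 0.41) and the ranges overlapped, since replicate 1 was above the empty vector and replicate 2 below it.

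S100A13 (ENSG00000189171, chromosome 1, 153618787 to 153631360, minus strand) takes part in the export of FGF1, which lacks a signal peptide. It was at 125, 111 and 135 RPKM in the empty vector and at 227, 145 and 153 RPKM in hPRM2. In the libraries labelled hPRM1 it was at 1.85, 2.07 and 1.25 RPKM, a log2 fold change of -5.52 (SE 0.21). These levels stand for 2.87, 2.30 and 1.72 reads with its shortest coding transcript and for 4.74, 3.79 and 2.84 with its longest. The size of the fold change therefore rests on few reads. Under both rescalings S100A13 remained lower, at -3.66 and -3.91. It overlaps S100A1 on the opposite strand, and S100A1 was at 0 in all libraries. hPRM2 lay above the empty vector without overlap, with a log2 fold change of 0.48 (SE 0.31). Between these 2 groups 35.9% of all genes tested did not overlap. S100A16 (ENSG00000188643) was at 0.135 RPKM in replicate 2 of the empty vector, about 1 read, and at 0 in the other 8 libraries.

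Counted together, 9 of the 10 members passed the filter on low values in the libraries labelled hPRM1 against the empty vector (3 or more of the 6 libraries at or above 1 RPKM). S100A9, S100A12 and S100A6 passed it through the libraries labelled hPRM1 alone, so they had to differ. A call was an adjusted p-value of at most 0.05 in limma with at least a 2-fold change. By this rule 7 were higher and 2 lower, while 12.9% of the 13588 genes tested were called higher and 62.5% lower. Nothing is read from the members' count, because they were chosen from these libraries. Median-of-ratios rescaling turned the background to 28.8% higher and 28.9% lower, and quantile normalization to 25.6% and 32.3%. The median log2 fold change of the 9 was 6.74, also with S100A12 and S100A6 at their lower bounds, beside -1.72 over all genes. Against hPRM2, where 16.0% of 11756 genes were called higher and 37.0% lower, 7 members were higher in the libraries labelled hPRM1 and S100A13 lower, with S100A10 not called. S100A9 and S100A6 passed the filter there through the libraries labelled hPRM1 alone, so they had to differ. The S100P call in that comparison was lost without any one of 5 libraries (each library labelled hPRM1 and hPRM2 replicates 1 and 2). The median of the 9 was 6.88, also with S100A9 and S100A6 at their lower bounds, beside -0.97 over all genes, and nothing is read from it.

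Between hPRM2 and the empty vector, 5 members passed the filter and 0 were called by limma, at a background of 1.36% of 13126 genes called higher and 1.37% lower, and 3351 of all genes lay under 0.05 by the unadjusted p-value. The 5 log2 fold changes ranged from -2.65 for S100A4 to 0.54 for S100A8 (SE 0.64), with a median of -0.45 beside -0.72 over all genes. Both comparisons use the same empty vector libraries.

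The partners and receptors of S100 proteins were not used to choose the members. Of 21 such genes, 19 were tested in the libraries labelled hPRM1 against the empty vector, and 7 were called higher, 6 lower and 6 not called (limma with Benjamini-Hochberg adjustment over all genes), beside 12.9% of all genes higher and 62.5% lower. Of these, 8 passed the filter through 1 group alone and so had to differ. They were TLR4, LY96, CD14, AGER, CD36 and CYBB, high in the libraries labelled hPRM1, and ALCAM and PLAT, high in the empty vector, and their levels are given with no test. Among the other 11, 1 was higher (ANXA1), 4 lower and 6 not called. The split depended on the scaling. Median-of-ratios rescaling called 15 of the 19 higher and 2 lower, beside 28.8% and 28.9% of all genes. Quantile normalization called 13 higher and 3 lower, beside 25.6% and 32.3%. The median log2 fold change of the 19 was 0.20 on the deposited scale, beside -1.72 over all genes. It includes the 8 genes that had to differ, 6 of them upward, so nothing is read from it.

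Among receptors of released S100 proteins, CD14, a co-receptor of TLR4, was at 0, 0.753 and 0 RPKM in the empty vector and at 117, 143 and 99.6 RPKM in the libraries labelled hPRM1. In hPRM2 it was at 17.8, 0 and 0 RPKM. AGER, the receptor for advanced glycation end products, was at 0 in all 3 empty vector libraries and at 27.5, 26.5 and 27.4 RPKM in those labelled hPRM1. In hPRM2 it was at 0, 0 and 2.03 RPKM. TLR4 and its partner LY96 were at 0 in the 6 other libraries and at 2.61 to 4.55 and 2.68 to 3.34 RPKM in those labelled hPRM1. CD36, a scavenger receptor for fatty acids, was at most at 0.141 RPKM in the empty vector and at 2.77, 5.95 and 4.31 RPKM in the libraries labelled hPRM1, but reached 3.44 RPKM in hPRM2. BSG, which binds S100A9, had a log2 fold change of -0.60 (SE 0.27, limma adjusted p = 0.0762), which turned to 1.58 and 1.24 under median-of-ratios and quantile rescaling. ALCAM, another S100A8 and S100A9 binding protein, was at 8.87, 7.01 and 7.27 RPKM in the empty vector and at 0.690, 0.373 and 0.946 RPKM in the libraries labelled hPRM1, and its call was lost under both rescalings.

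Of the NADPH oxidase subunits that calprotectin is known to serve, CYBB was at 0 in the empty vector and at 11.3, 13.2 and 12.7 RPKM in the libraries labelled hPRM1. CYBA, which many cell types express, was at 30.7, 15.8 and 41.7 RPKM in the empty vector and 24.9, 35.4 and 35.2 RPKM in the libraries labelled hPRM1 (log2 fold change 0.20, SE 0.37, limma adjusted p = 0.646). Under median-of-ratios and quantile rescaling CYBA was called higher, with log2 fold changes of 2.29 and 1.90. CD14 is also among the neutrophil and monocyte markers.

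Intracellular partners did not follow their S100 genes in one direction. CACYBP, the partner of S100A6, fell from 131, 133 and 121 RPKM to 5.08, 4.41 and 5.93 RPKM while S100A6 was higher (log2 fold change -4.40, SE 0.19, limma adjusted p = 4.75e-06). SUGT1, a cochaperone that S100A6 binds, fell by 3.00 on the log2 scale (SE 0.27, limma adjusted p = 6.61e-05), and its call was lost under median-of-ratios rescaling (-0.94). ANXA1, the partner of S100A11, rose from 6.79, 1.49 and 8.58 RPKM to 26.0, 24.9 and 24.8 RPKM (log2 fold change 2.20, SE 0.51, limma adjusted p = 0.00595). S100A10 and ANXA2, which form a complex, were both lower in the libraries labelled hPRM1 on the deposited scale. ANXA2 was at 79.0, 90.7 and 106 RPKM in the empty vector and 50.1, 44.5 and 37.3 RPKM in the libraries labelled hPRM1, and it fell by 1.05 (SE 0.20, limma adjusted p = 0.00257), but rose to 1.11 and 0.71 under the rescalings. PLAT, the plasminogen activator that this complex binds, was at 4.88, 3.42 and 7.09 RPKM in the empty vector and at 0 in the libraries labelled hPRM1. AHNAK, the scaffold of the same complex, was not called (log2 fold change 0.25, SE 0.24, limma adjusted p = 0.366), but was called higher under both rescalings (2.23 and 1.88). MYH9, the S100A4 target, was higher by 0.74 (SE 0.17, limma adjusted p = 0.00648), under the 2-fold limit, and passed it under both rescalings (2.85 and 2.44). EZR, the partner of S100P, fell by 1.09 (SE 0.22, limma adjusted p = 0.00339), which turned to 1.04 and 0.60 under the rescalings. IQGAP1 and ANXA6 were not called, with log2 fold changes of -0.10 (SE 0.33) and 0.02 (SE 0.33), and both were called higher under the rescalings, at 2.03 and 1.62 for IQGAP1 and 2.17 and 1.77 for ANXA6. FGF1 was at 0 in all 9 libraries, and SYT1 did not pass the filter.

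**Figure D2:**
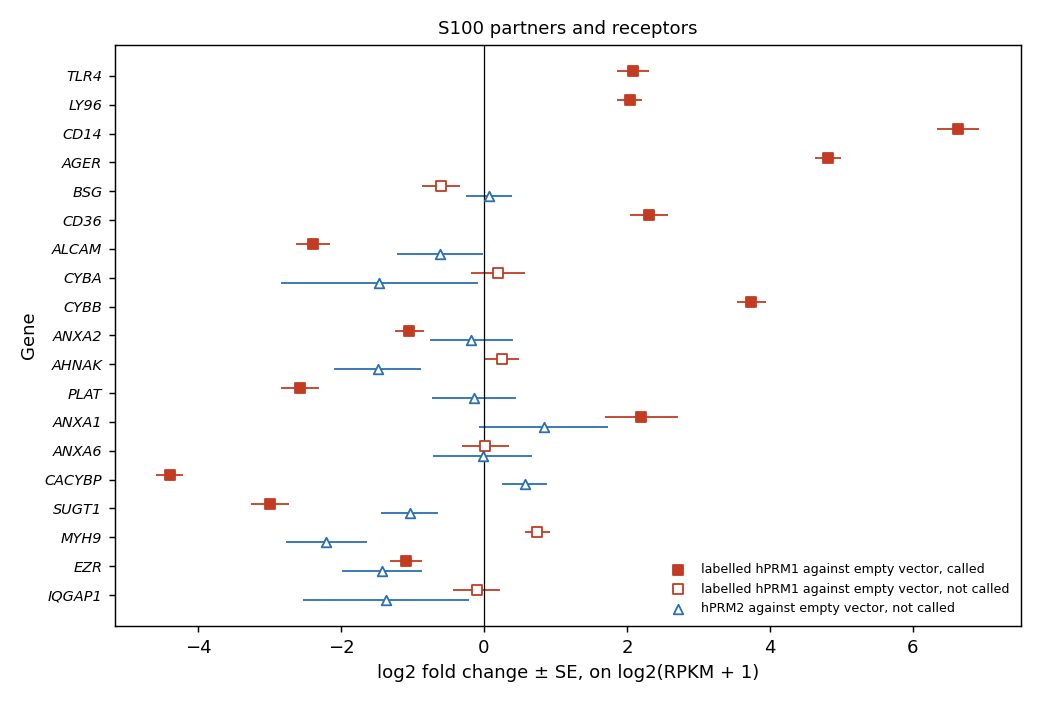
Log2 fold change of each tested partner or receptor on the log2(RPKM + 1) scale, with bars of 1 SE, for the libraries labelled hPRM1 (squares) and hPRM2 (triangles) against the empty vector. Filled symbols were called, 7 higher and 6 lower among the squares and 0 among the triangles, and 8 of the filled ones had to differ by the filter. Median-of-ratios rescaling leaves CACYBP and PLAT called lower, quantile normalization these and SUGT1, and ANXA2 and EZR turn higher after either.

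In hPRM2 against the empty vector, 13 of the 21 partners were tested and 0 were called by limma, at a background of 1.36% of genes called higher and 1.37% lower. Their median log2 fold change was -0.62, beside -0.72 over all genes. The largest difference was that of MYH9, at 25.1, 24.6 and 23.6 RPKM in the empty vector and 2.06, 5.27 and 7.75 RPKM in hPRM2. Its log2 fold change was -2.20 (SE 0.57, limma adjusted p = 0.0834), and all 3 hPRM2 libraries lay below the empty vector. Of all genes tested, 35.9% had no overlap between these groups. CACYBP was at 256, 166 and 162 RPKM in hPRM2, above all 3 empty vector libraries, but was not called (log2 fold change 0.57, SE 0.31, limma adjusted p = 0.286). Without hPRM2 replicate 1, the library with the highest EZR and IQGAP1 values of its group, 3 partners were called, and MYH9, EZR and IQGAP1 were lower. In that fit 5.30% of all genes were called higher and 12.3% lower. In the libraries labelled hPRM1 against hPRM2, 19 partners were tested, and TLR4, LY96, CD14, AGER, CYBB, AHNAK and MYH9 were higher, with ALCAM, PLAT, CACYBP and SUGT1 lower, beside 16.0% of all genes higher and 37.0% lower. TLR4, LY96, CYBB, ALCAM and PLAT passed the filter through 1 group alone there and had to differ. Median-of-ratios rescaling called 13 higher and 2 lower, beside 31.2% and 18.3% of all genes. Quantile normalization called 12 higher and 3 lower, beside 24.6% and 26.4%. MYH9, low in hPRM2, had a log2 fold change of 2.95 there (SE 0.47, limma adjusted p = 0.00271).

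The rest of the family was nearly silent. Of 11 other S100 genes, S100Z alone passed the filter. It was at 2.61, 15.2 and 3.63 RPKM in the libraries labelled hPRM1, at 1.86, 0 and 0 RPKM in the empty vector and at 0 in hPRM2. It rose against the empty vector (log2 fold change 2.19, SE 0.69, limma adjusted p = 0.0225), but the call was lost without empty vector replicate 2 or 3. S100B, a glial marker that some lymphocytes also express, was at 0.544, 1.14 and 4.27 RPKM in the libraries labelled hPRM1 and at 0 elsewhere. S100A2, known from epithelia, was at 3.37, 0.156 and 4.34 RPKM in the empty vector and at 0.456, 0 and 0 RPKM in the libraries labelled hPRM1. S100A14 reached 2.03 and 7.22 RPKM in hPRM2 replicates 2 and 3. The remaining 7 were at 0 in every library, except S100A5 at 0.666 RPKM in 1 library labelled hPRM1. The 7 fused genes of the same region, which join an S100 domain to a long repeat and serve the skin barrier, reached at most 2.72 RPKM and none passed the filter. Keratinocyte markers, which accompany many S100 genes in skin, summed to 414 to 462 RPKM in the empty vector and to 42.3 to 82.3 RPKM in the libraries labelled hPRM1. Most of this sum was KRT10, at 394 to 449 RPKM in the empty vector and 32.3 to 48.3 RPKM in the libraries labelled hPRM1. KRT1 went the other way, from 0 in the empty vector to between 9.84 and 33.8 RPKM in the libraries labelled hPRM1, and KRT14 was at 0 in all 9 libraries.

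The 9 members on chromosome 1 lie in 2 blocks. S100A10 and S100A11 form one, and 1310 kb separate it from the second block of 274 kb that runs from S100A9 to S100A1. The blocks hold 17 coding genes, of which 5 had a mean of at least 1 RPKM in the empty vector, 8 in the libraries labelled hPRM1 and 5 in hPRM2. In the libraries labelled hPRM1, S100A9, S100A12 and S100A8 lay at one end of the second block and S100A6 and S100A4 near the middle. In between, S100A7A, S100A7L2 and S100A7 were at 0. S100A13 at the far end was the member of that block with the highest level in the empty vector. Its neighbour CHTOP, just outside the block, was at 91.9 ± 6.68 RPKM with the empty vector but at 16.6 ± 3.45 RPKM in the libraries labelled hPRM1. Both genes were lower there, but so were most genes. Of all 13588 genes tested, limma called 62.5% lower, at a median log2 fold change of -1.72, so nothing is read from their position. Beyond the other ends, PGLYRP4 and TCHHL1 were at 0 and THEM4 was at 26.4 ± 8.28 and 31.8 ± 14.6 RPKM.

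**Figure D3:**
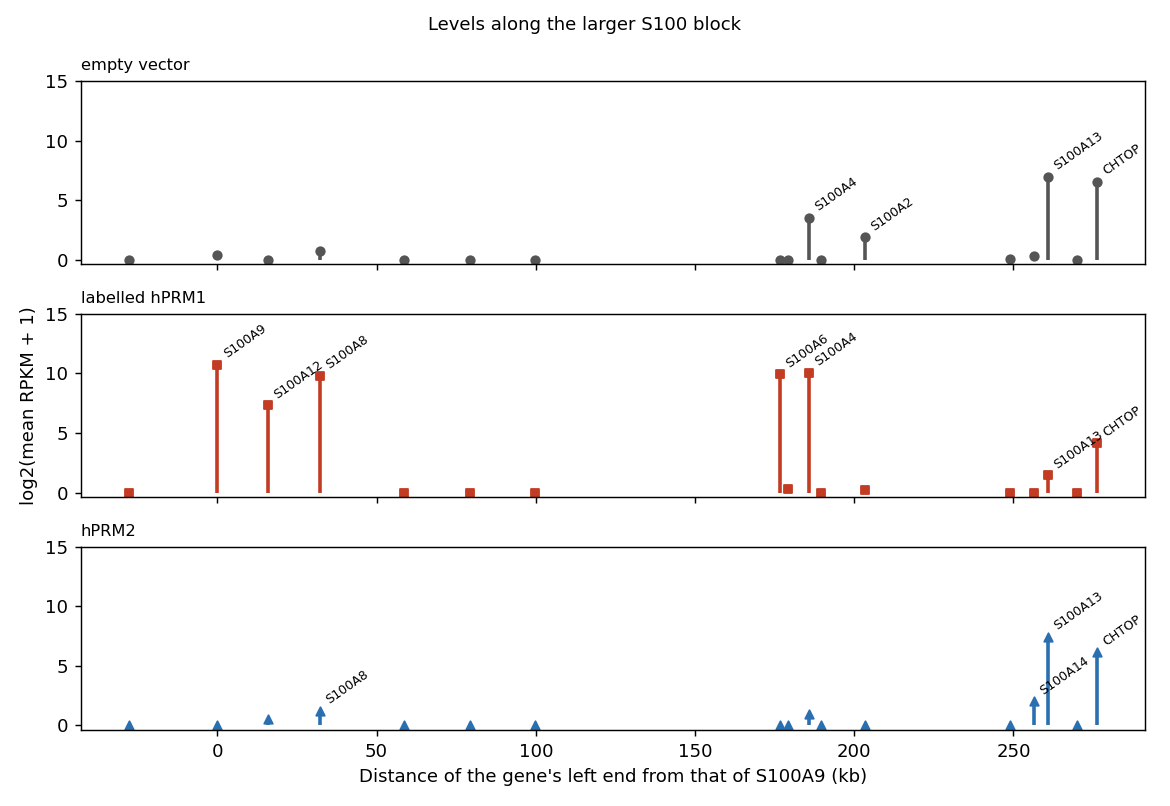
Mean level on the log2(mean RPKM + 1) scale of each coding gene in and next to the second block, against the distance of its left end from that of S100A9 in kb, in 3 panels for the groups. Genes with a mean of at least 1 RPKM are named. S100A9, S100A12, S100A8, S100A6 and S100A4 are tall in the libraries labelled hPRM1, and S100A13 and CHTOP are tall in the empty vector and hPRM2.

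The genes whose levels were most like those of single members were found over 40040 genes, by the mean absolute difference of log2(RPKM + 1) over the 9 libraries. S100A6 was nearest to CD74, the invariant chain of antigen presentation (0.04), and to HBM, a globin gene (0.05), followed by RNU4-62P, ITGB2 and MNDA (0.25 to 0.31). S100A9 was nearest to RNU4-62P (0.23), TYROBP, an adaptor of myeloid receptors (0.27), ITGB2, the common chain of leukocyte integrins (0.32), LTB (0.39) and S100A6 (0.41). S100A8 was nearest to HBM (0.55), ITGB2 (0.55), S100A6 (0.56), TNFAIP2 (0.57) and CD74 (0.58). S100A10 had other neighbours, namely SEC62, a subunit of the protein translocon (0.20), RHOA, a regulator of the actin cytoskeleton (0.23), C17orf49 (0.33), VIM (0.34) and ATP6V0B (0.35). These lists describe the same 9 libraries and were not tested.

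S100 mRNAs are short, and the deposited values fitted a length with 250 bases taken off, which raises the RPKM of short transcripts relative to their reads. In CPM, S100A9 stood at 557 ± 83.2, S100A8 at 221 ± 40.3 and S100A12 at 42.6 ± 8.14 in the libraries labelled hPRM1 (SD, n = 3).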

How the data were processed

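RNA-seq libraries with 3′-end enrichment were made from 3 groups of 3 samples. The authors processed the reads with nf-core/rnaseq (per the submitters' processing notes FastQC, cutadapt, STAR and Salmon, build hg38, versions not given in the sources used here), removed mitochondrial genes and deposited RPKM values, that is counts divided by library total and gene length, for 57338 genes. 0 further columns of values were left unused. Symbols matched 98.6% of identifiers.

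Reads on genes were estimated from the lowest repeated step of genes with 1 transcript of 600 to 20000 bases in GENCODE 29, with 250 bases subtracted (2063 values in the first step, against 412 without). Of low values, 88.8% to 95.2% were whole within 0.05 reads. No count test was run between groups. The 95% intervals for S100A9 and S100A8 are exact binomial intervals on estimated reads, rounded and summed over each group. For a gene listed at 0, up to 3 reads were allowed for.

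Groups were taken from sample titles. limma 3.58.1 in R 4.3.3 was run on log2(RPKM + 1), which understates changes of low genes, for genes with at least 1 RPKM in at least 3 of 6 libraries, with lmFit and eBayes (trend, robust) and Benjamini-Hochberg adjustment, without a replicate block. The study's per-gene test was replaced by limma, which shares the spread over genes. The code was tested on simulated data. Other steps used Python 3.11.15, pandas 2.3.3, numpy 2.4.6, SciPy 1.17.1 and matplotlib 3.10.9. Members, gene lists and alternatives (pseudocount, filter, rescaling, a fit of all libraries, no fold threshold, a replicate block, each library left out in turn) were chosen with earlier results of these data known. Named genes are all members, other S100 genes with a group mean of at least 1 RPKM, tested partners, the 5 genes nearest to each of 4 members (without Y, XIST, HLA, immunoglobulin, T cell receptor and KIR genes) and the genes in or next to the S100 blocks. S100A5, KRT1, KRT10, KRT14 and the marker sums were added for context. 1 gene of the planned partner list and 1 sequence are not reported here.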

Additional observations from a re-analysis of the deposited data

How the results depend on the processing

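Of the values of single genes, 959 kept their call or stayed uncalled, 38 lost a call, 26 gained one and 14 reversed with a call in either setting. A change of direction without a call counts among the 959. ANXA2 against hPRM2 is an example, at -0.87 in the main fit and 1.04 after median-of-ratios rescaling. The 14 reversals with a call came with rescaling, in which the libraries labelled hPRM1 are divided by another factor. By median of ratios and by quantiles, respectively, the log2 fold changes against the empty vector became 0.88 and 0.59 for S100A10, 1.58 and 1.24 for BSG, 1.11 and 0.71 for ANXA2, 1.04 and 0.60 for EZR and 2.03 and 1.62 for IQGAP1. Against hPRM2 they became 1.08 and 1.05 for S100A10 and 1.27 and 1.17 for BSG.

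For the libraries labelled hPRM1 against the empty vector, partners called went from 13 to 8 with a pseudocount of 5, to 8 with a minimum of 10 RPKM and to 5 to 11 when 1 replicate was left out, with 7, 7 and 5 without replicates 1, 2 and 3 labelled hPRM1. Over all genes, 8.48% were called higher and 46.7% lower with that pseudocount, and 12.4% and 71.2% with that minimum. With 1 replicate left out, the shares were 5.37% to 17.3% higher and 53.3% to 68.6% lower. The other S100 genes called went from 1 to 0 with a pseudocount of 5, to 0 with a minimum of 10 RPKM and to 0 to 1 when 1 replicate was left out (0 without empty vector replicate 2 or 3). Members called stayed at 9 or 8 under settings that keep all libraries and ranged from 6 to 9 when 1 was left out. All counts of members called describe the settings only, because the members were chosen from these libraries. For hPRM2 against the empty vector, the fit of all 9 libraries called 1 member (S100A4) and 1 partner (MYH9, limma adjusted p = 0.0114). Over all genes this fit called 3.86% higher and 12.3% lower. Leaving out 1 replicate called 0 to 3 partners. The 3 came without hPRM2 replicate 1, where 5.30% of all genes were called higher and 12.3% lower. For the libraries labelled hPRM1 against hPRM2, members called went from 8 to between 5 and 8 when 1 replicate was left out (5 without any one of the libraries labelled hPRM1), and partners from 11 to 7 with a pseudocount of 5, to 7 with a minimum of 10 RPKM and to 6 to 11 when 1 replicate was left out (6 without any one of the libraries labelled hPRM1). With 2 libraries labelled hPRM1, genes at 0 elsewhere cannot reach the filter of 3 libraries and were not tested, which by construction removes S100A9, S100A6 and similar genes.

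Replicate numbers are shared between groups, but same-numbered libraries did not deviate together (correlations of -0.0783 to 0.0795 over 14901 genes), so they share only a number. With the replicate block, 9 members and 13 partners were called for the libraries labelled hPRM1 against the empty vector, 0 and 0 for hPRM2, and 8 and 10 for the libraries labelled hPRM1 against hPRM2. In the same order, the shares of all genes called higher and lower were 13.1% and 62.9%, 0.373% and 0.0609%, and 15.3% and 34.2%. The depth of the hPRM2 libraries limits any statement on members under about 10 RPKM there.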
